A study of Mus musculus with 8 samples.

Results

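Among the 55681 non-control probes of a mouse expression array, 933 were designed on transcripts that RefSeq lists as predictions, and these were chosen by the start of the transcript name that the scanner file gives each probe. Of them, 600 probes carried an XM_ name and 333 carried an XR_ name, and they covered 878 predicted transcripts, 557 XM_ and 321 XR_. RefSeq, the reference transcript collection of NCBI, marks curated messenger RNAs with NM_ and curated non-coding RNAs with NR_. XM_ and XR_ mark the messenger and the non-coding RNA models that an automated annotation pipeline proposes from the genome, from aligned transcripts and from proteins. The non-coding models include long non-coding RNAs and transcribed pseudogenes, which are copies of genes that lost their coding capacity. A model may be withdrawn, renumbered or merged at a later release, while a probe designed on it goes on reporting any RNA that binds it.

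The arrays were hybridised with RNA from 8 single mouse embryos at embryonic day 8.5. All embryos were heterozygous for Eedl7Rn5-1989SB, an allele of Eed that lowers the function of EED, a core subunit of the Polycomb repressive complex 2 that methylates histone H3 at lysine 27, on a mixed C57bl6/129 background, and all had wild-type mothers. The 4 embryos of the HOM father group were sired by males homozygous for the allele and the 4 of the HET father group by heterozygous males, with 2 female and 2 male embryos in each group, so that the groups differed in the genotype of the sire and not in that of the embryo. By the methods of the study the sires came as 3 pairs, each of a homozygous and a heterozygous brother, and were fewer than the embryos. The labels do not tie embryos to sires, so that embryos are not fully independent replicates of a father genotype and the pairs could not be modelled. Replicates 3 and 4 of the HOM father group share the number that opens the embryo identifiers, as do replicates 1 and 2 of the HET father group. The labels do not say what that number marks. Within it the consensus correlation of limma was 0.30 over the tested probes. Replicates 1 and 2 of the HOM father group and 1 and 3 of the HET father group were female. Each father group was hybridised on a slide of its own, so slide and father genotype cannot be told apart in any father difference below.

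The values are log2 processed signals of the scanner software, with the 75th percentile of the array subtracted, so that 0 is the level of the 75th percentile and each unit is a 2-fold step. A probe was detected on an array where the scanner software flagged it as well above background, and between 51.9% and 60.8% of all non-control spots were so on each array, with 0 spots saturated. Markers of the labelled tissue were present, and all 7 genes listed for the embryo proper and all 3 for yolk sac or visceral endoderm were detected on all 8 arrays. Apoa1 of the second list and the heart gene Myl7 of the first were lower in the HOM father group, with differences of -0.41 (limma adjusted p = 0.0139) and -0.25 (adjusted p = 0.0408), and Afp and Ttr differed by -0.12 and -0.16 (adjusted p = 0.525 and 0.211). Eed itself had a mean of 4.72 in the HOM father and 4.71 in the HET father group (limma adjusted p = 0.870). Xist, Ddx3y, Eif2s3y and Uty separated the female from the male embryos as labelled. Prl8a2, a prolactin-family gene of the decidua, the maternal tissue around the embryo, ranged from 0.29 to 4.45 in the HOM father and from -3.99 to 1.88 in the HET father group (adjusted p = 0.215). The summed level of the trophoblast markers Prl3d1 and Tpbpa ranged from -1.03 to 1.98 and from -3.05 to 0.44, and on none of the arrays was Tpbpa well above background. The part of these tissues in the differences below was not tested.

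Fewer of the predicted transcripts than of the curated messenger RNAs were detected in the embryos. On at least 4 of the 8 arrays, 263 of the 600 XM_ probes (43.8%) and 147 of the 333 XR_ probes (44.1%) were well above background, against 70.8% of the NM_, 42.8% of the NR_ and 53.4% of all probes. XM_ and XR_ probes were thus detected about as often as the curated non-coding RNAs. On no array at all were 251 XM_ probes (41.8%) and 136 XR_ probes (40.8%) above background, against 20.5% of the NM_ probes, and 227 XM_ (37.8%) and 119 XR_ probes (35.7%) were above it on all 8.

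By array, the share of XM_ probes detected was 50.5%, 43.2%, 44.3% and 45.8% in HOM father replicates 1 to 4 and 47.1%, 43.4%, 41.8% and 40.3% in HET father replicates 1 to 4. For XR_ probes it was 49.5%, 43.2%, 43.5% and 45.9% in the HOM father and 47.1%, 46.2%, 38.4% and 40.8% in the HET father embryos. The groups overlapped in both classes, and the first embryo of each group had the highest share, as it had among NM_ probes.

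Once detected, the XM_ probes fell into a bright and a dim set, whereas the XR_ probes were mostly dim. The 410 detected members were also the 410 that passed the filter on low signals and entered the tests, out of 29718 tested probes of the array. The quartiles of the mean level were -3.12, 0.67 and 5.74 over the 263 XM_ probes, -3.79, -2.16 and -0.26 over the 147 XR_ probes, and -1.95, 0.40 and 2.53 over the NM_ probes. In the brightest of 10 equal bins of all tested probes lay 92 of the 263 XM_ probes and 16 of the 147 XR_ probes. In the dimmest bin lay 35 XM_ and 21 XR_ probes.

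The bright end was occupied by predicted messenger RNAs whose signal approached the top of the array, at 8.49 for the brightest NM_ probe. The brightest XM_ probe, A_55_P2139665 for XM_003084649, read 8.12, 8.10, 8.08 and 8.22 in the HOM father and 8.23, 8.13, 8.27 and 8.20 in the HET father embryos. These overlapped, and the fitted difference, HOM father minus HET father, was -0.08 ± 0.0529 (SE; limma adjusted p = 0.354). The next brightest XM_ probes, for XM_001479371, XM_001478364, XM_001472468 and XM_001003664, differed by -0.20, -0.00, -0.11 and -0.23, of which XM_001003664 alone fell below an adjusted p of 0.05 (0.0464) and its groups overlapped. The brightest XR_ probe, A_55_P2121537 for XR_032431, had means of 7.51 ± 0.07 (SD, n = 4) and 7.57 ± 0.08 (SD, n = 4). The other leading XR_ probes, for XR_104891, XR_107489, XR_107233 and XR_105781, differed by -0.17, -0.19, -0.13 and -0.06, with adjusted p from 0.0528 to 0.542. The 5 brightest members of each class thus differed by at most 1.17-fold between the father groups.

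The father comparison asked which transcripts differ between embryos of the same genotype whose sires had lower or higher EED function. At an adjusted p below 0.01 and at least 2-fold, 3 of 263 XM_ probes (1.14%) and 6 of 147 XR_ probes (4.08%) were called, all 9 higher in the HOM father group, against 1.27% of all tested probes called in either direction and 1.24% called higher and 0.0269% called lower. Among NM_ probes 0.431% were called, or 0.568% and 0.807% when NM_ probes were weighted to the signal of the XM_ and of the XR_ probes. Of all tested probes weighted in the same way, 1.17% and 1.71% were called, the first close to the XM_ share. Among NR_ probes, 2.12% were called, or 1.33% and 2.20% so weighted. With quantile normalisation and with median scaling, 4 XM_ probes were called, of which 3 were higher. All 9 called members lay below the median level of the tested probes, -0.56.

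For 2 of the called members no HET father array was above background, so that they entered the test through the group in which they were high. Among probes detected on all 8 arrays, 0 XM_ and 4 XR_ probes were called. XR_106698, probe A_55_P2063776, is the Gm2568 transcript by the annotation of the study, and RefSeq lists Gm2568 as a pseudogene. It read -2.89, -3.28, -3.61 and -3.60 in the HOM father embryos, well above background in all 4, and -7.49, -7.29, -6.97 and -6.93 in the HET father embryos, not well above background in any. The groups were far apart, and the signal was at least 3.48-fold higher in the HOM father group, where the bound sets its mean against the lowest signal that was well above background on each HET father array (adjusted p = 5.52e-05). The bound holds for these processed signals, and with normexp, which adds an offset, the fitted log2 difference was 1.36.

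XM_918475, probe A_55_P2093520, followed with -3.36, -3.56, -3.36 and -3.31 in the HOM father embryos and -5.76, -7.17, -6.73 and -6.83 in the HET father embryos. It was again detected in all 4 of the first and in none of the second group, and was at least 3.36-fold higher on the same scale (adjusted p = 0.000373), with a log2 difference of 1.13 under normexp. On none of the 8 arrays was the other probe for the same transcript, A_55_P2093519, well above background, with means of -7.12 and -7.15, so the rise rested on 1 of 2 probes.

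XM_894578, probe A_55_P2028568, read -3.87, -4.16, -3.76 and -4.08 against -5.33, -5.91, -6.23 and -6.16, and was detected on 1 of the 4 HET father arrays. The fitted difference was 1.94 ± 0.201 (SE; adjusted p = 0.000774), with 3 of the 4 HET father values not well above background. With normexp it was 0.68, under 2-fold, and the call was lost. XM_001476568, probe A_55_P2144296, which the annotation of the study names Gm17776, read -3.29, -3.05, -3.23 and -3.32 against -4.38, -4.65, -4.79 and -4.66, with detection on 2 of the 4 HET father arrays. The groups did not overlap for either probe, and the fitted difference of the second was 1.40 ± 0.0995 (SE; adjusted p = 0.000189). With normexp it was 0.75, and the call was lost.

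The remaining called XR_ probes were measured in most or all embryos, so that their folds are not bounds. XR_105056, probe A_65_P20683, read -0.41, -0.63, -0.63 and -0.01 against -2.01, -2.19, -2.21 and -2.06, a difference of 1.70 ± 0.141 (SE; 3.24-fold, adjusted p = 0.000348). It was the brightest called member, and was above background on all 8 arrays. XR_105390, probe A_51_P422223, read -1.57, -1.43, -1.08 and -1.12 against -2.52, -3.02, -2.64 and -2.84, a difference of 1.46 ± 0.148 (SE; adjusted p = 0.000715). XR_105388, probe A_55_P2301058, has a number close to the previous one and read -2.21, -2.27, -2.41 and -1.90 against -2.89, -3.49, -3.38 and -3.12. Its difference of 1.03 ± 0.155 (SE; 2.04-fold, adjusted p = 0.00375) was just past both thresholds, and the call held in 6 of 18 other settings, being lost among others under each block and without any one of 6 of the 8 embryos.

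XR_105095, probe A_55_P2339601, read -1.60, -1.02, -1.13 and -1.28 against -2.31, -2.62, -2.23 and -2.67, a difference of 1.20 ± 0.152 (SE; adjusted p = 0.0018). XR_105017, probe A_55_P2208463, read -3.34, -3.62, -3.60 and -3.34 against -4.52, -4.54, -4.93 and -4.38 and differed by 1.12 ± 0.131 (SE; adjusted p = 0.00131), with detection on 3 of the 4 HET father arrays. The latter was 0.47 under normexp, and its call held in 14 of 17 other settings. In both probes, as in all 9 called members, the lowest HOM father embryo exceeded the highest HET father embryo.

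Not every 2-fold difference passed. XM_286185, probe A_66_P133993, read 2.71, 3.08, 4.04 and 4.12 in the HOM father and 2.48, 2.27, 1.31 and 1.44 in the HET father embryos, a difference of 1.61 ± 0.404 (SE; adjusted p = 0.0278). The groups stood apart, but the spread within them was wide, and it was much brighter than any called member. The highest embryos of each group were those that share an identifier number. XR_107888, probe A_55_P2329298, was the one tested member lower by 2-fold in the HOM father group, at -4.08, -2.67, -2.70 and -2.40 against -1.73, -1.81, -2.03 and -1.69 (adjusted p = 0.049). Its first HOM father embryo was far below the other 3. Both were chosen after their values were seen.

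Smaller differences were more frequent. A further 30 XM_ (11.4%) and 15 XR_ probes (10.2%) passed an adjusted p of 0.01 below 2-fold, against 7.55% of all tested probes. With no fold limit and 0.05 as the limit of the adjusted p, 49 XM_ probes (18.6%) were higher and 19 (7.22%) lower in the HOM father group, and 27 XR_ probes (18.4%) were higher and 8 (5.44%) lower, against 12.3% higher and 8.69% lower of all tested probes. NM_ probes showed the opposite balance, with 6.61% higher and 10.3% lower. This split depends on the scaling: with each array set to its median, which moves the median difference of all tested probes from -0.02 to -0.21, 37 XM_ probes were higher and 79 lower, and 21 XR_ probes were higher and 32 lower. With normexp background correction the XM_ counts were 41 and 32. The median difference was 0.04 over XM_, 0.07 over XR_ and -0.05 over NM_ probes, against -0.02 over all. With quantile normalisation these were 0.05 for XM_, -0.0049 for XR_ and -0.04 over all, and with normexp 0.0094, -0.01 and -0.04, so the sign of the XR_ median depends on the processing.

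The shares were next set beside those of NM_ and of all tested probes of the same mean signal. Weighted to the signal of the XM_ probes, 6.52% of NM_ and 10.6% of all probes passed that limit as higher and 11.1% of both as lower, beside 18.6% and 7.22% of XM_ probes. Weighted to the signal of the XR_ probes, 8.87% of NM_ and 14.6% of all probes were higher and 6.81% and 6.50% lower, beside 18.4% and 5.44% of XR_ probes. These shares are a description, since probes of one array are not replicates.

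XM_ probes were more often higher below the median level than above it, but the share did not change evenly with signal. Below the median level of all tested probes, 34 of 116 XM_ probes (29.3%) were higher and 1 lower, 20 of 104 XR_ probes (19.2%) were higher and 5 lower. Of all tested probes at that level 17.7% were higher and 3.14% lower, close to the XR_ share, and of NM_ probes 10.4% were higher and 3.94% lower. Above the median level, 15 of 147 XM_ probes were higher and 18 lower, and 7 of 43 XR_ probes were higher and 3 lower, against 6.95% higher and 14.2% lower of all. The median XM_ difference was 0.28 below and -0.04 above the median level. The bin with the largest XM_ share, picked after its values were seen, lay just below that level, from -1.54 to -0.56. In it 10 of 17 XM_ probes were higher and none was lower, with a median difference of 0.48. Of all probes in the bin 15.5% were higher and 5.85% lower, and of NM_ probes 7.81% and 6.89%. In the dimmest bin 14.3% of XM_ probes were higher, against 17.8% of all probes. In the bins between the median level and the brightest bin the share of higher XM_ probes was 16.7% to 33.3%. The counts were small, at 3 of 14, 3 of 9, 2 of 12 and 4 of 20 from dimmer to brighter bins. Of all probes in these bins 10.9%, 8.28%, 7.00% and 5.01% were higher. In the brightest bin 3.26% of XM_ probes were higher, against 3.53% of all probes.

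Several of these moderate rises were tight. XM_003085340, probe A_55_P1962454, had means of -0.99 ± 0.01 in the HOM father and -1.83 ± 0.04 in the HET father embryos (SD, n = 4 each), a difference of 0.84 ± 0.0425 (SE; 1.79-fold, adjusted p = 5.5e-05). XM_003084493, probe A_66_P120572, read -1.14, -0.92, -1.12 and -1.07 against -1.96, -2.04, -1.93 and -1.96 (1.88-fold, adjusted p = 0.000149). XR_105667, probe A_55_P1993733, had means of -1.03 ± 0.05 and -1.78 ± 0.06 (SD, n = 4 each; 1.67-fold, adjusted p = 0.000151). These 3 were separated by far more than their spread but stayed under 2-fold. XR_105614, probe A_55_P1961391, had means of -2.48 ± 0.08 and -3.41 ± 0.16 (SD, n = 4 each; 1.91-fold), and XR_105420, probe A_55_P2183408, had the largest difference below the fold limit, at 0.95. These 5 were chosen after their values were seen.

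With 0.05 as the limit of the adjusted p, 27 members (6.59%) were lower in the HOM father group, against 8.69% of all tested probes. These shares depend on the scaling, as the counts above do. The members named next also passed 0.01. The largest fall was that of XM_003086593, probe A_55_P2354336, at -4.76, -4.99, -4.72 and -4.64 against -4.12, -3.58, -4.24 and -3.89, a difference of -0.82 ± 0.148 (SE; adjusted p = 0.0078). XM_358948, XM_003085361, XR_108020, XM_619852 and XM_484215 followed at -0.45, -0.43, -0.37, -0.31 and -0.25. Of these, 3 were bright, with HET father means of 6.40 for XM_003085361, 6.68 for XM_619852 and 6.75 for XM_484215.

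The order of the 8 embryos was also read, without a test and from the same scaled values, so it is no separate support. All 4 HOM father embryos lay above all 4 HET father embryos in 56 XM_ and 32 XR_ probes, against 14.1% of all tested probes, and the reverse held in 31 XM_ and 11 XR_ probes, against 13% of all. The first counts are 21.3% and 21.8% of the class and the second 11.8% and 7.48%. Weighted to the signal of the XM_ probes, HOM father embryos lay above in 12.3% of all tested probes and HET father embryos in 16.6%. Weighted to the signal of the XR_ probes, these shares were 16.2% and 9.69%. The median SD within groups was 0.136 for XM_, 0.196 for XR_, 0.111 for NM_ and 0.172 for NR_ probes. At the signal of the XM_ probes it was 0.112 for NM_ and 0.126 for NR_ probes, and at that of the XR_ probes 0.162 and 0.176.

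RefSeq numbers are handed out in order, so low numbers mark older models. XM_ numbers of 6 digits, XM_001 numbers and XM_003 numbers had 67 of 174, 79 of 164 and 117 of 262 probes tested, with median levels of 2.54, 0.46 and -0.14. Probes of the oldest numbers were thus tested least often but were brightest once tested. XR_0 and XR_1 numbers had 21 of 52 and 126 of 281 probes tested. The 9 called members comprised 2 of 6 digits, 1 XM_001 and 6 XR_1 numbers.

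Of the 933 probes, 15 carried an accession present in the RefSeq table used here, of assembly GRCm38.p6, 7 XM_ and 8 XR_, against 98.3% of NM_ and 93.5% of NR_ probes. Among the 15, 3 were tested. XR_105855 is Gm9258, a long non-coding RNA, and its probe A_55_P2043377 read -1.73, -1.65, -1.74 and -1.60 in the HOM father and -2.13, -2.14, -2.18 and -2.09 in the HET father embryos. The groups did not overlap, and the difference was 0.45 ± 0.0503 (SE; 1.37-fold, adjusted p = 0.00102). The long non-coding RNA C230012O17Rik, XR_035244, differed by 0.03 (adjusted p = 0.847), and Vinac1, XM_001004454, by 0.53 with overlapping groups (adjusted p = 0.24). On none of the arrays was a second Vinac1 probe well above background. The other probes, for the protein-coding models Fbxw27, Gm725, Scgb2b15, Gm11543 and Gm17783, the long non-coding RNAs Gm5922, 1700010L04Rik, Gm35438 and Gm5636, and 9130208D14Rik and Gm9903, were each above background on at most 3 of the 8 arrays.

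Several probes of one model did not always report one level. Of the 878 transcripts, 47 had 2 probes and 4 had 3, and in 17 of these 51 at least 2 probes were tested. The levels of probes of one transcript differed by a median of 1.71 and by at most 6.48, and lay within 2-fold in 8 of the 17. The widest gap was in XM_003085336, where probe A_55_P2001168 averaged 3.30 and A_55_P1995836 averaged -3.18. Both were nonetheless higher in the HOM father group, by 0.40 (adjusted p = 0.000846) and 0.67 (adjusted p = 0.0194). The father differences of probes of one transcript were closer to each other, with a median gap of 0.18, although their signs were opposite in 6 of the 17. In XM_003085330 the brighter probe, A_55_P1954092, differed by 0.71 (adjusted p = 0.0359) and the dimmer, A_55_P2036240, by -0.13 (adjusted p = 0.547). This was the largest gap, 0.85.

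Female and male embryos were compared with the father group in the model, a comparison that each slide holds in balance. Of the 410 tested members, 2 were called, 1 XM_ and 1 XR_, against 0.0606% of all tested probes. In 12 members the sexes did not overlap, 5 with female and 7 with male embryos above, against 1.9% of all tested probes. XM_001474638, probe A_55_P1963264, read -3.71, -3.50, -3.49 and -3.61 in the 4 male embryos, all well above background, and -7.13, -6.94, -7.56 and -6.76 in the 4 female embryos, none above it. The probe thus entered the test only through the sex in which it was high. It was at least 3.22-fold higher in male embryos (adjusted p = 0.000688), with a log2 difference, female minus male, of -1.24 under normexp. Over the 8 arrays its values followed most closely those of Ddx3y, a helicase gene of the Y chromosome (r = 0.997). Next came Cptp, on chromosome 4 (r = 0.995), and then Uty and Eif2s3y, both on the Y chromosome (r = 0.993 and 0.991). Zfp933, also on chromosome 4, came after them (r = 0.983). These nearest probes were picked from 3057 NM_ probes with a name and an SD above 0.3, and all share the same 8 arrays.

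XR_106478, probe A_55_P2137932, was higher in female embryos, at -1.51, -1.69, -1.94 and -1.88 against -3.52, -3.27, -4.06 and -4.45 in male embryos. The sexes did not overlap and the difference, female minus male, was 2.07 ± 0.15 (SE; adjusted p = 0.00503). The call held in 7 of 15 other settings and was lost without any one embryo other than HET father replicate 4 (adjusted p up to 0.0414). It was above background in all 8 embryos, unlike XM_001474638. The named probe closest to it over the 8 arrays was that of Plcxd1 (r = 0.976). Whether the father difference differed between female and male embryos was tested as an interaction, and 0 members were called, with limma's lowest adjusted p at 0.342, against 0% called of all tested probes. At an unadjusted p below 0.05 were 22 members (5.37%), near the 4.52% of all tested probes. The lowest was that of XR_105262, probe A_55_P2303478. Among the called members, XR_105390 had a father difference in female embryos smaller by 0.75 than in male embryos (a fitted interaction of -0.75, unadjusted p = 0.0018, adjusted p = 0.508).

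A set of bright members varied between embryos within the father groups, and did so together with some probes for Hmgb1 and for other genes. Hmgb1 encodes an abundant DNA-bending chromatin protein. XM_358238, probe A_52_P658974, read 6.23, 5.57, 6.13 and 6.42 in the HOM father and 6.26, 5.98, 4.55 and 5.21 in the HET father embryos. XR_031779, probe A_55_P2074080, read 6.34, 5.77, 6.25 and 6.57, and 6.50, 6.20, 4.93 and 5.55. In both, HET father replicates 3 and 4 were lowest, followed by HOM father replicate 2, and the father groups overlapped (adjusted p = 0.314 and 0.407).

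Both probes of XM_003085889 shared this order, A_55_P2134979 at 6.36, 5.81, 6.31 and 6.50 and then 6.56, 6.29, 4.91 and 5.52, and A_55_P2176917 at a lower level, from 1.60 in HET father replicate 3 to 3.69 in HOM father replicate 4. The NM_ probe closest to each of these 4 members was one for Hmgb1, with r from 0.996 to 0.998 over the 8 arrays. Of the 7 Hmgb1 probes tested, 3 showed the pattern, such as A_55_P2025153 at 6.32, 5.70, 6.19 and 6.55, and then 6.54, 6.21, 4.81 and 5.41. The other 4 did not, such as A_55_P2013501, which stayed between 5.21 and 5.53. Probes for one curated gene thus differed from each other, and the predicted transcripts followed one subset of them. The pattern was not particular to Hmgb1. Probes for Phkb and Ilrun, on other chromosomes, were also among the closest to each of the 4 members (r from 0.979 to 0.992). The other Phkb probe, A_52_P513347, did not show it and stayed between -0.82 and -0.67. The members were noticed by their values, and r is a description.

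Another 5 members varied together with a group of mouse genes that lie on one chromosome in the RefSeq table. XM_001476447, probe A_55_P1999972, read -0.46, 0.15, 1.08 and 0.48 in the HOM father and 0.65, -0.56, 0.30 and 0.43 in the HET father embryos, closest to 3830406C13Rik (r = 0.996). XM_003084958, probe A_55_P1993851, read 2.24, 2.80, 3.36 and 2.62, and 2.55, 1.80, 2.63 and 2.42, closest to Gm5796 (r = 0.996). In both, HOM father replicate 3 was highest and HOM father replicate 1 and HET father replicate 2 were lowest. XR_032590, XR_105602 and XM_001475922 had the same highest embryo, and were closest to Gm5796, 4930555G01Rik and Gm2897, all on that chromosome. None of the 5 passed the father test, with adjusted p from 0.325 to 0.939. Of the 135 members whose values had an SD above 0.3 over the 8 arrays, 9 had their 3 closest named probes on 1 chromosome, and in 2 of these the 3 probes were of 1 gene, Hmgb1.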

How the data were processed

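RNA of 8 whole embryos, 0.2 µg each, was labelled with Cy3 and hybridised by the authors to Agilent SurePrint G3 Mouse GE arrays, 1 embryo per array. The deposited files are tables of Agilent Feature Extraction 11.0.1.1 and give the processed signal intensity of each spot, already corrected for background, with flags; probe sequences, descriptions and gene names were not used here, so members were not grouped by name or description. The deposited value table holds the same intensity values, rounded, linear and not centred; it differed by at most 0.497% and served as an alternative.

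Flagged outlier spots were left out, log2 intensities were shifted by the 75th percentile of their array, and spots of one probe were averaged. Probes that on at least 4 of 8 arrays were detected and reached the 20th percentile were tested with limma 3.58.1 in R 4.3.3 over all 29718 such probes, father groups unblocked, with Benjamini-Hochberg adjustment over all of them and two-sided p. The sex comparison had the father group in the model. The fits were checked on simulated data. The members, comparisons and lists were chosen with earlier results of these data known. The called members were named, with the 5 brightest of each class; others named were chosen after their values were seen. Levels compare probes, not transcripts, since binding differs between probes. The number of arrays limits the precision. Sensitivity to scaling, background correction, filters, variance model, call rule, blocks, sex and single embryos was computed. For normexp, the median spot signal was used.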

Additional observations from a re-analysis of the deposited data

Results flagged for a closer look

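One value stood apart from the others of its group. XM_001479371, probe A_55_P2106424, read 8.21 in HOM father replicate 4, while the other 3 HOM father embryos lay between 7.95 and 7.97 and the 4 HET father embryos between 8.20 and 8.27. It was 1 of 50 groups of 4 examined, over the members named by the rule, and chance gives about 1 in 20 such groups, or 2.5 here. The father difference of this probe was -0.20 (adjusted p = 0.0722).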

How the results depend on the processing

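Detection on at least 1 array gave shares of 58.2% for XM_ and 59.2% for XR_ probes, and on all 8 arrays 37.8% and 35.7%. XM_ probes called by father numbered 3. With quantile normalisation and with median scaling there were 4, of which 3 were higher in the HOM father group. There was 1 with normexp, and there were 5 without the filter on low values and 0 among probes above background on all 8 arrays. At an adjusted p below 0.05 with no fold limit there were 68. XR_ probes called numbered 6, but 4 with each of quantile normalisation, median scaling and normexp, 5 without the filter, and 35 with no fold limit. Under the replicate block 3 XR_ probes were called. Replicate numbers did not pair the embryos. Deviations from the group means over the tested probes correlated by 0.19, -0.09, -0.13 and 0.15 between embryos of the same number. Of the 4 HOM father embryos, 2 correlated best with their own number. Over all tested probes 376 were called, but 141 with normexp, 228 among those above background on all 8 arrays and 232 under the replicate block. Without single embryos 3 XM_ probes and 5 to 7 XR_ probes were called.

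Of the 19 lower XM_ probes at an adjusted p below 0.05, the count became 12 with quantile normalisation, 79 with median scaling, 32 with normexp, 4 without the filter, 32 with the intensity trend and robust variance, 4 under the replicate block, 12 under a random block on the number that opens the embryo identifiers, and 7 to 20 without single embryos, where it was 10 or fewer without HOM father replicate 1 or 3 or HET father replicate 1, 3 or 4. The 8 lower XR_ probes became 32 with median scaling, 1 without the filter, 1 under the replicate block, 5 under the random block and 2 to 7 without single embryos, where it was 5 or fewer without any embryo but HOM father replicate 1. Median differences of XM_ and XR_ probes were -0.15 and -0.12 with median scaling. Below the median level, 22.4% to 34.6% of XM_ and 6.41% to 10.5% of NM_ probes were higher over all settings.

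Sex calls were 2, but 1 without the filter, 1 among probes above background on all 8 arrays, and 1 to 2 without single embryos, where XR_106478 was lost. Interaction calls were 0 in all settings run. No direction reversed among the 11 called probes. XR_105388 was called in 6 of 18 settings, and XR_105017 in 14 of 17. XM_894578 and XM_001476568 were lost with normexp (differences 0.68 and 0.75), XR_105390 and XR_105095 under the replicate block (adjusted p = 0.0101 and 0.0171). XR_106698, XM_918475, XR_105056 and XM_001474638 were called in every setting that tested them. The 12 weaker results of XR_105388 had differences of at least 0.67.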

Other observations

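Other members varied widely within the father groups without passing a test. XR_104542, probe A_55_P2145982, read -0.91, -2.67, -0.75 and -2.41 in HOM father replicates 1 to 4 and -0.64, -0.79, -0.74 and -0.82 in HET father replicates 1 to 4. HOM father replicates 2 and 4, a female and a male embryo, were low and the other 6 embryos close together. The probe for Prim2, which encodes a subunit of the DNA primase, was also low in these 2 embryos and level in the others, at 1.83, -0.69, 1.84 and -0.86 and then 1.89, 1.84, 1.88 and 1.86 (r = 0.989 over the 8 arrays). The probe for Crispld1 was at -2.72 and -2.54 in these 2 embryos and between -1.25 and -0.83 in the others (r = 0.986), and both genes lie on one chromosome in the RefSeq table. The father difference of XR_104542 was -0.94 (adjusted p = 0.174).

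XR_106549, probe A_55_P1960108, read -0.52, -2.62, -1.16 and -1.66 in the HOM father and -1.38, -1.76, -1.05 and -1.17 in the HET father embryos. Its closest named probes were those of Nppa, the atrial natriuretic peptide gene of the heart (r = 0.979), and Nr2f1, which encodes a nuclear receptor (r = 0.977). HOM father replicate 2 was lowest and HOM father replicate 1 highest in all of them. XM_001472378, probe A_55_P2044592, ranged from 3.10 in HOM father replicate 3 to 4.12 in HOM father replicate 2, and its 3 closest probes were for Fam241a, Tlcd4 and Manba, which lie on one chromosome (r from 0.965 to 0.973). Neither differed between the father groups by the test (adjusted p = 0.832 and 0.594). These members were chosen after their values were seen, the closest probes were picked from 3057, and r is a description over the same 8 arrays.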
